A study of Mus musculus with 13 samples.

Results

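Ly6c monocytes of colon tumors were taken as the cells that carried Ly6c2 together with Vcan or F13a1 RNA and lacked the defining RNA of the neighbouring leukocytes, and 3413 of the 93871 retained tumor cells met this rule. A cell was retained with at least 500 UMIs (unique molecular identifiers, each standing for 1 captured RNA molecule), at least 200 genes and under 25% mitochondrial UMIs. A member had at least 2 UMIs over Vcan and F13a1, at least 1 UMI of Ly6c2, more Vcan and F13a1 than Arg1 and Inhba UMIs, at most 3 UMIs over C1qa, C1qb and C1qc, and 0 UMIs of Cxcr2, Cd3e, Cd79a and Flt3. Members were thus chosen by the measured UMIs of these genes, whose levels are given as a description only. The 10 tumors gave 217 to 718 members each, and the adjacent mucosa gave 23 cells in all (5, 6 and 12 per library), too few for any comparison.

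The cells came from single-cell RNA sequencing of 10 colon tumors and 3 samples of adjacent mucosa. All mice were C57BL/6J carrying ApcMin/+, the germline Apc mutation that starts intestinal tumors, with p16cis/cis, an engineered model of p16 promoter methylation, and all received the supplemented diet (extra folic acid, vitamin B12, choline and betaine). No library of another genotype or diet was among them. The titles carry 3 animal codes, called here by age: the 20-week code (tumors 1 to 4), the 24-week code (tumors 5 to 8) and the 23-week code (tumors 9 and 10). Tumors of 1 code share an animal, so p-values between codes and between classes measure the spread among tumors and not among animals. Age and animal cannot be told apart. Tumors were dissociated with a tumor dissociation kit and mucosa with EDTA and TrypLE, so tissue and dissociation cannot be told apart in the mucosa count.

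Classical Ly6c monocytes leave the bone marrow through the chemokine receptor Ccr2, circulate for a short time and enter inflamed tissue and tumors, where they can become macrophages or antigen-presenting cells. Vcan encodes the matrix proteoglycan versican, F13a1 a coagulation transglutaminase, and Ly6c2 a surface protein that separates these cells from the Ly6c-low patrolling monocytes. In the intestine, newly arrived monocytes are known to gain MHC class II and lose Ly6c as they replenish the resident macrophages.

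The labels were checked before any comparison. Xist, expressed in female cells, stood at 0.0294 to 0.129 CPM (UMIs of a gene per 1000000 UMIs of the sum) in the tumor libraries (2 to 10 UMIs each), and the Y-linked genes Ddx3y and Eif2s3y stood at 31.7 to 50.7 and 49.6 to 63.2 CPM in the same libraries. Of the 13 libraries 7, tumors 2, 6, 8, 9 and 10 among them, are labelled Female, so these genes go against the label there. The 20- and the 24-week code each carry both labels, though a code stands for 1 animal, so the sex comparison below, made within codes, is one of labels within an animal. Tumor libraries held 7789 to 11862 barcodes and 57221300 to 93157039 UMIs. Pairs of libraries shared 14 to 61 barcodes, at most 0.561% of the smaller library.

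The cells' identity was then read from markers that the rule did not use. Chil3, a chitinase-like protein of bone marrow monocytes and alveolar macrophages, was found in 84.8 to 95.8% of the members of a tumor, and in 1.67 to 9.71% of T cells, which should lack it. Ccr2 was found in 74.6 to 86.8% of members, against 1.14 to 2.63% of neutrophils. Median UMIs per cell were 5827 to 7359 in monocytes, 3356 to 4742 in T cells and 2582 to 3336 in neutrophils. After thinning every cell to 2000 UMIs, Chil3 remained detected in 78.1 to 94.4% of monocytes and 0.766 to 6.73% of T cells, and Ccr2 in 46.7 to 59.1% of monocytes and 0.679 to 1.85% of neutrophils. Among single markers of other cell types in the summed monocytes of each tumor, Cd3d reached at most 8.25 CPM (Cd3e was 0 by the rule), Ms4a1 of B cells at most 0.550, Cpa3 of mast cells at most 0.502 and Xcr1 of dendritic cells at most 0.708. Whole marker lists were not at 0: they summed to 142 to 967 CPM for B and plasma cells, 792 to 2728 for neutrophils, 314 to 1429 for epithelium, 10.3 to 3821 for erythrocytes, 16.3 to 55.5 for dendritic cells, 1.91 to 46.7 for T cells and 0.477 to 43.4 for NK cells (both highest in tumor 2), 0 to 6.37 for mast cells and 3.54 to 110 for fibroblasts and endothelium. Igkc of plasma cells had a UMI in 46.5 to 98.9% of members, and in 51.4 to 98.2% of neutrophils and 50.1 to 98.5% of T cells, which do not make it. The non-classical monocyte list of 12 genes summed to 485 to 587 CPM, against 300 to 433 in Arg1 and Inhba macrophages and 707 to 939 in C1q macrophages (classes defined below), with Ace at 1.10 to 5.72 CPM and Spn at 3.41 to 8.87. Of its tested genes, 6 of 8 were higher and 0 lower than in Arg1 and Inhba macrophages (median log2 difference 0.53), and 4 of 10 higher and 5 lower than in C1q macrophages. Over all genes tested 26.3% were higher and 27.0% lower in the first comparison, and 33.5% and 34.2% in the second. Without cells holding more than 2 UMIs of epithelial markers, 4 of 8 were higher than in Arg1 and Inhba macrophages (median 0.24).

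Many cells lay near the limits of the rule, and these numbers are given as a description. Of the members, 569 sat at the lower limit of 2 Vcan and F13a1 UMIs, 1004 at the limit of 1 Ly6c2 UMI, 520 had 1 to 3 C1q UMIs, and 155 had Vcan and F13a1 exactly 1 UMI above Arg1 and Inhba. Just outside, 1634 cells failed only for lack of a Ly6c2 UMI, 945 only because Arg1 and Inhba were as high, 531 only with 1 Vcan or F13a1 UMI, and 344 only for their C1q UMIs, of which 84 had 4 to 6 and 205 had at least 10.

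Monocytes made up 2.01% of the retained cells in tumor 1 (Wilson 95% interval 1.76 to 2.29, counting error only), 6.74% in tumor 6, and 3.37% in the median tumor. Of cells with a Ptprc UMI (CD45, carried by all leukocytes), they were 2.86 to 8.87%, median 4.78%. The mean share was 2.92% ± 0.88 (SD, n = 4 tumors) in the 20-week code, 4.32% ± 1.81 (n = 4) in the 24-week code and 3.73% ± 0.40 (n = 2) in the 23-week code. These shares overlapped and did not differ beyond the spread among tumors (exact permutation test of the F statistic, p = 0.377, smallest possible 0.000635). Libraries labelled Female and Male differed by 0.47 points (two-sided exact permutation test within codes, p = 0.708, smallest possible 0.0417), and leaving out tumor 6 or tumor 7 turned the direction of that difference.

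To place these cells, their RNA was set against the macrophages of the same tumors. Arg1 and Inhba macrophages (4230 cells) carried at least 2 UMIs over Arg1 and Inhba, and at least as many as over Vcan and F13a1. They also had at least 1 UMI over Csf1r and Cd68 and at most 3 C1q UMIs, so Arg1 and Inhba cells with more C1q are outside this class. C1q macrophages (7371 cells) carried at least 10 C1q UMIs. Both classes had 0 UMIs of Cxcr2, Cd3e, Cd79a and Flt3. UMIs were summed per tumor and class and tested with edgeR with the tumor as a block. The sums held 1413167 to 4764318 UMIs per tumor in the monocytes, 1944039 to 4245184 in the Arg1 and Inhba class and 3699310 to 12028491 in the C1q class. Median UMIs per cell were 5728 to 7165 in the Arg1 and Inhba class and 7642.5 to 11640.5 in the C1q class. In such sums, fewer cells carrying a gene and less of its RNA per cell cannot be told apart. The 14 genes that define the classes were left out of every count, but genes that go with them had to differ to some degree, so the list counts below are read against the share over all genes. A gene could also pass the filter on low counts through its level in 1 class alone. Such a gene could hardly come out higher in the other class, and lists differ in the genes tested against each class. Against Arg1 and Inhba macrophages, 4607 of 8641 genes passed an adjusted p of 0.05 (53.3%, 26.3% higher and 27.0% lower in monocytes), and 3.43% were higher and 7.7% lower by at least 1 on the log2 scale. Against C1q macrophages 6709 of 9912 passed (67.7%, 33.5% higher and 34.2% lower), and 5.91% were higher and 9.99% lower by at least 1.

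**Figure D1:**
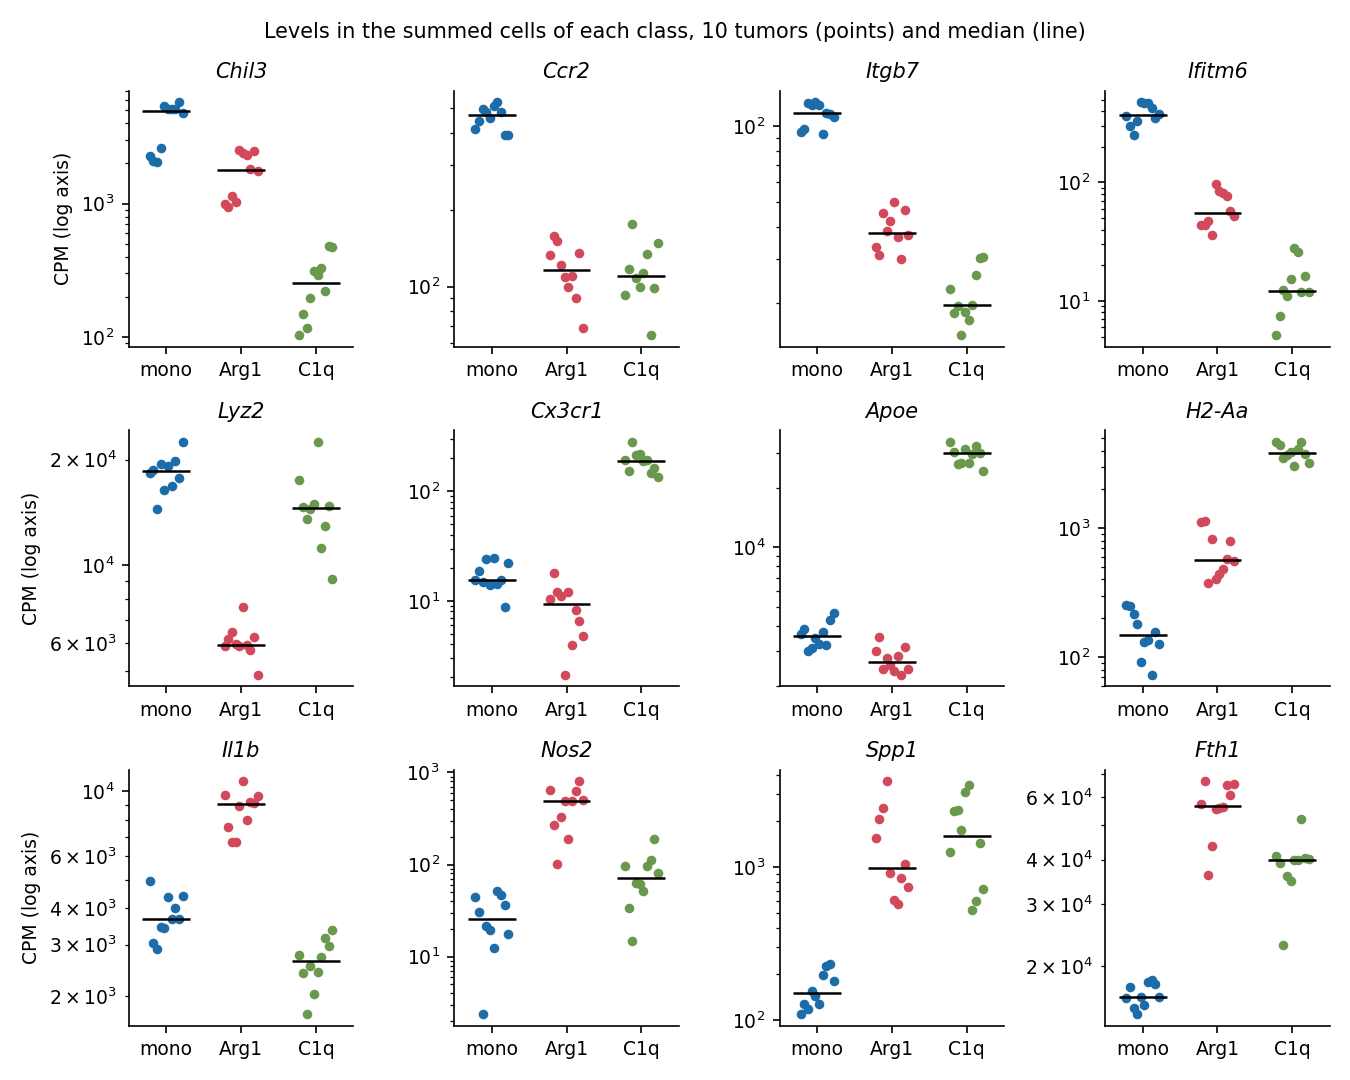
Levels of 12 genes that the rule did not use, in CPM on log axes, in the summed monocytes (mono), Arg1 and Inhba macrophages (Arg1) and C1q macrophages (C1q); points are the 10 tumors and lines their medians. For Ccr2 and Ifitm6 the monocytes of every tumor lie above both macrophage classes, and for Fth1 and Spp1 below both.

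Of 22 monocyte identity genes outside the rule, 20 were higher and 1 lower than in C1q macrophages (median log2 difference 2.08, against -0.02 over all genes tested), and 13 were higher and 8 lower than in Arg1 and Inhba macrophages (median 0.46, against -0.01). Chil3 stood at 2042 CPM in the lowest tumor, 4925 in the median and 5752 in the highest, against 950, 1779 and 2536 in Arg1 and Inhba macrophages and 103.8, 257 and 480 in C1q macrophages. Its log2 difference was 1.17 ± 0.06 (adjusted p = 3.7e-10) and 4.18 ± 0.11 (9.9e-15), higher in 10 of 10 tumors in both. Here and below, the ± of a log2 difference is an approximate SE, the difference divided by the root of the test's F statistic. It restates the test and can fall below the counting error where a class holds few UMIs. Ccr2, the receptor for Ccl2, stood at 391, 470 and 527 CPM, against at most 157 in Arg1 and Inhba and 176 in C1q macrophages. The groups did not overlap (log2 differences 1.96 ± 0.10 and 2.25 ± 0.11).

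Ifitm6, an interferon-induced transmembrane family member of myeloid cells, stood at 252, 371 and 477 CPM against medians of 54.9 in Arg1 and Inhba macrophages and 12.2 in C1q macrophages (log2 differences 2.63 ± 0.09 and 5.02 ± 0.16). Neutrophils of these tumors also carried it, with a median of 778 CPM. Neutrophils were here defined by at least 1 UMI of Cxcr2 and 10 over S100a8 and S100a9, so their own levels of these genes follow from the definition. In monocytes S100a9 stood at 71.7, 266 and 999.9 CPM and Retnlg, a resistin-like protein of neutrophils, at 6.67, 14.9 and 191. Over the neutrophil marker list, 8 of 11 genes were higher and 2 lower than in C1q macrophages (median log2 difference 0.95), and 2 of 12 were higher and 10 lower than in Arg1 and Inhba macrophages (median -0.95). The list summed to 792 to 2728 CPM in monocytes (median 1584), 1324 to 3579 in the Arg1 and Inhba class (median 2596) and 652 to 906 in the C1q class, and its part in the differences of genes that neutrophils share was not tested.

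Itga4, the alpha chain shared by integrins that bind VCAM-1 and the gut addressin, stood at 104, 137 and 174 CPM in the lowest, median and highest tumor, against medians of 28.4 and 61.7 (log2 differences 2.20 ± 0.13 and 1.35 ± 0.07). Its gut-homing partner Itgb7 stood at 93.2, 112 and 124 CPM against 37.8 and 19.7 (1.47 ± 0.07 and 2.59 ± 0.11). Itgb1, its other partner, was lower than in both classes (-0.40 ± 0.07 and -0.42 ± 0.05). Over the 18 chemokine receptor and adhesion genes, 10 were higher and 7 lower than in Arg1 and Inhba macrophages (8 and 8 without cells holding more than 2 epithelial UMIs), and 12 higher and 5 lower than in C1q macrophages. Cx3cr1, the fractalkine receptor of patrolling monocytes and gut macrophages, went the other way against the C1q class, at 8.72, 15.6 and 24.4 CPM against 135, 190 and 284 (-3.23 ± 0.14), and was 0.99 ± 0.21 higher than in the Arg1 and Inhba class.

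Several further genes led the monocytes against both classes in all 10 tumors. Smpdl3a, a phosphodiesterase, stood at 227, 338 and 421 CPM against medians of 84.6 and 76.2 (log2 differences 1.97 ± 0.08 and 2.37 ± 0.06). Lsp1, an actin-binding protein of migrating leukocytes, stood at 284, 388 and 443 CPM against 107 and 71.3 (1.78 ± 0.07 and 2.66 ± 0.10). Ramp1, a subunit of the receptor for the neuropeptide CGRP, stood at 91.8, 106 and 138 CPM against 22.6 and 17.8 (2.06 ± 0.17 and 2.61 ± 0.17), and the uncharacterised gene Gm9733 at 58.8, 96.4 and 138 against 20.6 and 7.11 (2.21 ± 0.14 and 3.99 ± 0.13). Samhd1, which depletes deoxynucleotides, was higher by 1.11 ± 0.07 and 2.21 ± 0.07.

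Prtn3, the primary-granule protease proteinase 3, stood at 83.3, 106 and 217 CPM, the highest in tumor 2, against medians of 14.5 and 9.25 (log2 differences 2.82 ± 0.18 and 3.62 ± 0.20). Other granule genes were uneven over the 3413 members. There were 6213 UMIs of Lcn2, the iron-withholding lipocalin, and 3636 of Mmp8, but 99 of Mpo (82 in 1 cell of tumor 2), 80 of Elane, 65 of Mmp9, 25 of Ltf, 18 of Ngp and 0 of Camp. A UMI of Lcn2 was found in 26.1 to 56.0% of the members of a tumor, and its level was lower than in Arg1 and Inhba macrophages (-1.11 ± 0.11) and higher than in C1q macrophages (2.19 ± 0.19), each in 10 of 10 tumors. Lyz2, lysozyme of myeloid cells, stood at 14450, 18500 and 22500 CPM, above every Arg1 and Inhba sum (4885 to 7612; 1.56 ± 0.07) and overlapping the C1q sums (9153 to 22420; 0.57 ± 0.10, higher in 9 of 10). S100a4, which promotes cell motility, stood at 2411, 2786 and 3548 CPM (0.95 ± 0.05 and 2.81 ± 0.09). Plac8 was 3.20 ± 0.12 above C1q macrophages, and its smaller difference of 0.38 ± 0.07 from Arg1 and Inhba macrophages was lost (0.11, adjusted p = 0.11) when cells with more than 2 epithelial marker UMIs were left out.

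Mature macrophage genes lay far below the C1q class. All 18 tested genes of the maturation list were lower in monocytes (median log2 difference -3.00), whereas against Arg1 and Inhba macrophages 5 of 15 were higher and 8 lower (median -0.43), which became 2 of 14 higher and 9 lower (median -0.68) without cells holding more than 2 epithelial UMIs. As 18 genes were tested against the C1q class and 15 against the other, some of the 18 may have passed the filter on low counts through their C1q class level alone. Apoe, the lipid carrier, stood at 2983, 3558 and 4679 CPM against 24200, 29790 and 34090 in C1q macrophages (-2.80 ± 0.08). Mertk, an apoptotic-cell receptor, stood at 0, 0.705 and 3.07 CPM against 29.6, 48.3 and 58.9 (-5.27 ± 0.22). Cd72, a lectin-type inhibitory receptor, had 11 UMIs in all monocytes and 136 to 306 CPM in C1q macrophages (-8.27 ± 0.17), and the adhesion molecule Vcam1 had 16 UMIs against 74.6 to 273 CPM (-7.69 ± 0.19). For Cd72, Vcam1 and Mertk (25 UMIs in all monocytes) the counting error is larger than the ± given. The same holds for Ccl8 (46 UMIs) and Mmp13 (26 UMIs) below.

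Of the lipid-associated and phagocytic genes, 14 of 19 were lower and 3 higher (Lgals3, Anxa1 and Anxa2) than in C1q macrophages, and 8 of 17 were lower and 1 higher than in Arg1 and Inhba macrophages (median -0.14). Without cells holding more than 2 epithelial UMIs, 12 of 17 were lower and 2 higher than in the latter (median -0.36). Selenop, the plasma selenoprotein made by macrophages and liver, stood between the classes at 95.8, 110 and 122 CPM, above all Arg1 and Inhba sums (15.6 to 31.0; log2 difference 2.18 ± 0.09) and below all C1q sums (284 to 620; -1.61 ± 0.11). Adgre1, the F4/80 antigen, had the same order, at 37.9, 55.0 and 62.8 CPM (0.98 ± 0.09 and -1.18 ± 0.07). Trem2, a lipid receptor, stood at 105, 114 and 137 CPM (0.42 ± 0.11 and -1.64 ± 0.07). The difference of Apoe from the Arg1 and Inhba class (0.37 ± 0.05) fell to 0.06 (adjusted p = 0.33) without the cells holding more than 2 epithelial UMIs.

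**Figure D2:**
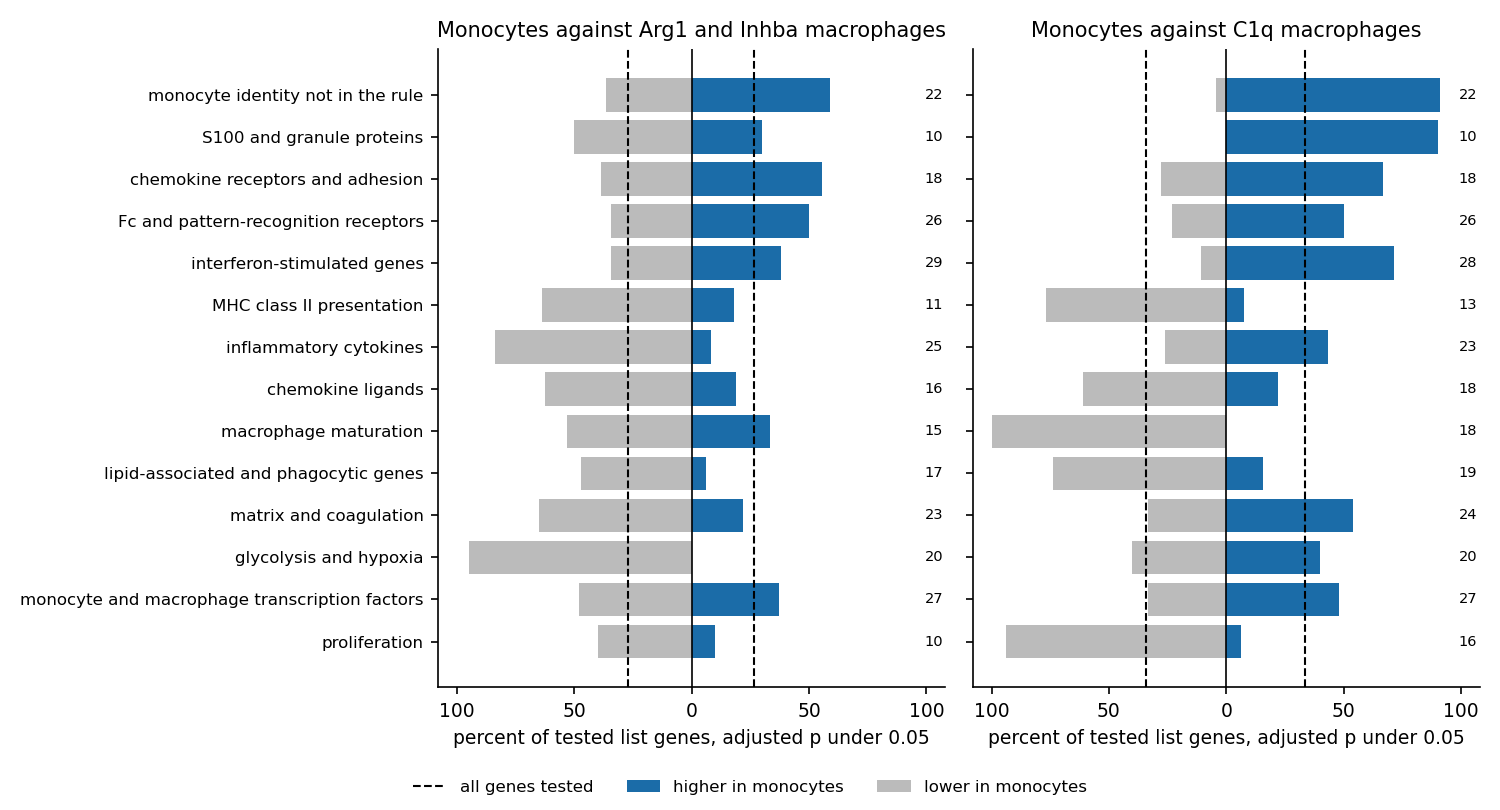
Percent of the tested genes of 14 lists that were higher (right) or lower (left) in monocytes at an adjusted p under 0.05, against each macrophage class; the number at the right is the genes tested and the dashed lines are the percent over all genes tested. All 18 tested maturation genes are lower than in C1q macrophages, and 19 of 20 glycolysis and hypoxia genes are lower than in Arg1 and Inhba macrophages.

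Inflammatory effector genes were mostly lower than in Arg1 and Inhba macrophages. Of 25 cytokine and mediator genes tested there, 21 were lower and 2 higher (median log2 difference -1.55), while against C1q macrophages 10 of 23 were higher and 6 lower (median 0.18). Il1b, the interleukin-1 cytokine, stood at 2897, 3667 and 4942 CPM in the monocytes, below every Arg1 and Inhba sum (6740, 9030 and 10830; -1.23 ± 0.06) and higher than the C1q sum of the same tumor in 10 of 10 (1738, 2632 and 3358; 0.75 ± 0.07). Nos2, the inducible nitric oxide synthase, stood at 2.38, 25.9 and 51.7 CPM against 101, 490 and 804 (-4.05 ± 0.17), and was also below the C1q class (-1.30 ± 0.17). Ptgs2, the inducible prostaglandin synthase, was 1.83 ± 0.13 lower than in the Arg1 and Inhba class. Tnf stood at 33.8, 67.3 and 148 CPM (-1.73 ± 0.12 against the Arg1 and Inhba class, -0.53 ± 0.11 against the C1q class).

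Chemokine ligands were mostly lower. Of 16 ligands 10 were lower than in Arg1 and Inhba macrophages and 3 were higher (Ccl2, Ccl6 and Ccl9), with a median log2 difference of -2.25, and 11 of 18 were lower and 4 higher than in C1q macrophages. The neutrophil attractant Cxcl2 stood at 1706, 2733 and 4731 CPM against 8476, 13240 and 22090 in Arg1 and Inhba macrophages (-2.21 ± 0.09), and Cxcl3 was 3.71 ± 0.18 lower. Ccl24, an eosinophil attractant, stood at 1.42, 7.62 and 31.0 CPM against 97.9, 400.0 and 1443 (-5.28 ± 0.45). Ccl2, the ligand that draws further Ccr2-bearing monocytes, stood at 153, 332 and 603 CPM against medians of 148 and 109, higher in 8 of 10 tumors than in the Arg1 and Inhba class (0.86 ± 0.17) and in 9 of 10 than in the C1q class (1.67 ± 0.22). Ccl6 was higher by 1.13 ± 0.08 and 1.14 ± 0.15 in 10 of 10. A pair of ligands of C1q macrophages were nearly absent from monocytes: Ccl8 stood at 0 to 4.93 CPM against 125 to 759 (-7.68 ± 0.18), and Pf4 at 2.01 to 13.3 against 902 to 2000 (-7.34 ± 0.15).

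Of 23 matrix and coagulation genes 5 were higher and 15 lower than in Arg1 and Inhba macrophages, and 13 of 24 were higher and 8 lower than in C1q macrophages. Mmp12, the macrophage elastase, stood at 0.55, 2.92 and 9.64 CPM against at least 259 in Arg1 and Inhba and 331 in C1q macrophages (-6.29 ± 0.27 and -6.98 ± 0.17), and the collagenase Mmp13 at 0 to 2.65 CPM was likewise lower by 6.03 ± 0.24 and 6.93 ± 0.16 on the log2 scale. Mmp8, the collagenase of neutrophil granules, was the reverse, at 79.2, 151 and 193 CPM against medians of 42.9 and 14.4 (1.64 ± 0.09 and 3.58 ± 0.09), with 505 CPM in the median neutrophil sum.

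Coagulation genes other than F13a1 were present too. F5, coagulation factor V, stood at 19.2, 36.1 and 44.9 CPM (log2 differences 1.88 ± 0.13 and 4.45 ± 0.11). F10, factor X, stood at 151, 206 and 272 CPM, above the C1q class (47.1 to 83.8; 1.84 ± 0.07) and below the Arg1 and Inhba class in 10 of 10 tumors (206 to 419; -0.40 ± 0.06). Spp1, osteopontin, stood at 110, 149 and 234 CPM against medians of 984 and 1596 (-2.94 ± 0.29 and -3.02 ± 0.33). Vegfa, the vascular growth factor, was 1.26 ± 0.10 below the Arg1 and Inhba class, and the growth factor Igf1 was 3.92 ± 0.33 below the C1q class.

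Of 20 glycolysis and hypoxia genes 8 were higher and 8 lower than in C1q macrophages. Against Arg1 and Inhba macrophages 19 of 20 were lower and 0 higher (median log2 difference -0.84). Ldha, which makes lactate, stood at 357, 466 and 612 CPM against 589, 859 and 1147 (-0.92 ± 0.05), Pgk1 was 1.05 ± 0.06 lower, and the hypoxia-induced oxidase Ero1l stood at 37.8, 57.1 and 89.1 CPM against 171, 206 and 251 (-1.83 ± 0.13). Fth1, the iron-storing ferritin heavy chain, stood at 14630, 16380 and 18210 CPM, below every Arg1 and Inhba sum (36170 to 66690; -1.78 ± 0.07) and every C1q sum (22960 to 51950; -0.99 ± 0.07). Hmox1, heme oxygenase, was lower than in both classes (-1.504 ± 0.18 and -1.39 ± 0.12).

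Transcription factor genes were mixed, with 10 of 27 higher and 13 lower than in Arg1 and Inhba macrophages and 13 higher and 9 lower than in C1q macrophages. Klf2, which maintains the quiescent state of circulating leukocytes, stood at 62.0, 78.0 and 108 CPM, above every sum of both classes (21.7 to 54.6 and 24.0 to 53.5; log2 differences 1.17 ± 0.13 and 1.32 ± 0.14). Cebpa, a factor of myeloid progenitors, was 0.69 ± 0.10 above the Arg1 and Inhba class and below the C1q class (-0.96 ± 0.08). Among receptors, Clec4a3, a C-type lectin receptor, stood at 121, 144 and 160 CPM (2.25 ± 0.09 and 0.70 ± 0.07), and Cd93 was higher by 0.63 ± 0.10 and 0.93 ± 0.09. Cd14, the lipopolysaccharide co-receptor often used as a monocyte marker, was 1.03 ± 0.05 lower than in Arg1 and Inhba macrophages and 0.57 ± 0.07 higher than in C1q macrophages. The Fc and pattern-recognition receptors had 13 of 26 genes higher and 9 lower than in Arg1 and Inhba macrophages, which turned to 9 of 25 higher and 11 lower without cells holding more than 2 epithelial UMIs, and 13 of 26 higher and 6 lower than in C1q macrophages. The S100 and granule proteins had 3 of 10 higher and 5 lower, and 9 of 10 higher and 0 lower, in the same order. The dissociation and immediate early list had 6 of 17 genes higher and 6 lower, and 11 higher and 5 lower, in the respective comparisons, and its part in the other differences was not tested.

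Epithelial RNA, like most neutrophil markers, was lower in monocytes than in Arg1 and Inhba macrophages. The 9 epithelial markers summed to 314 to 1429 CPM in monocytes (median 646), 1272 to 6279 in Arg1 and Inhba macrophages and 260.5 to 1121 in C1q macrophages. Epcam stood at 59.4, 154 and 327 CPM in monocytes (-1.53 ± 0.14 against the Arg1 and Inhba class). These UMIs were concentrated: 57.3 to 82.5% of the members of a tumor had none, and 142 members with more than 2 held 85.8 to 97.5% of them. Cells of either class above 2 such UMIs were then left out, an alternative chosen after the data had been seen. Against Arg1 and Inhba macrophages 4030 of 7463 genes passed (2035 higher and 1995 lower). Of the 4030, 3267 were in common with the full set and 24 of these in the opposite direction. The monocyte identity list then had 10 of 21 genes higher and 8 lower (median 0.24), the glycolysis and hypoxia list 0 higher and 20 of 20 lower, and the cytokine list 3 higher and 22 of 25 lower. The median of the matrix and coagulation list moved from -0.41 to -0.74 and that of the S100 and granule proteins from -0.26 to -0.01. The median log2 difference turned from 0.24 to -0.10 for the Fc and pattern-recognition receptors and from 0.27 to -0.03 for the chemokine receptors and adhesion genes. Against C1q macrophages 0 genes changed direction.

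Interferon-stimulated genes were higher than in C1q macrophages and varied strongly from tumor to tumor. Of 28 tested, 20 were higher and 3 lower (Iigp1, Bst2 and Cxcl9; median log2 difference 0.82), while against Arg1 and Inhba macrophages 11 of 29 were higher and 10 lower (median 0.03). Cxcl10, the T cell attractant, stood at 177, 859 and 2056 CPM in the lowest, median and highest tumor, against 120.5, 205 and 496 in C1q macrophages (2.19 ± 0.17, higher in 10 of 10). Isg15, the ubiquitin-like modifier, stood at 109, 266 and 456 CPM, between the Arg1 and Inhba class (-0.83 ± 0.08) and the C1q class (0.72 ± 0.09). Ifi204, a cytosolic DNA sensor, was higher than both, by 0.61 ± 0.09 and 1.89 ± 0.07.

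The summed list ran from 1800 CPM in the monocytes of tumor 3 to 6694 in tumor 1 and 6882 in tumor 9, with a median of 3861. Of the 28 list genes with at least 5 CPM, 20 had their lowest level in tumor 3 and 16 their highest in tumor 9. Tumor 3 also held the lowest and tumor 9 the highest sum in Arg1 and Inhba macrophages (1642 and 7175) and in C1q macrophages (1477 and 4377). These levels are shared by many cells: in tumor 9, 185 of 368 monocytes had a Cxcl10 UMI and the top 5 cells held 14.1% of them. The highest and the lowest tumors do not follow the animal codes, since tumors 1 and 3 have the same one. Socs1, an inhibitor of interferon signalling, varied likewise, from 35.7 CPM in tumor 3 to 467 in tumor 1, where 131 of 217 monocytes had a UMI.

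**Figure D3:**
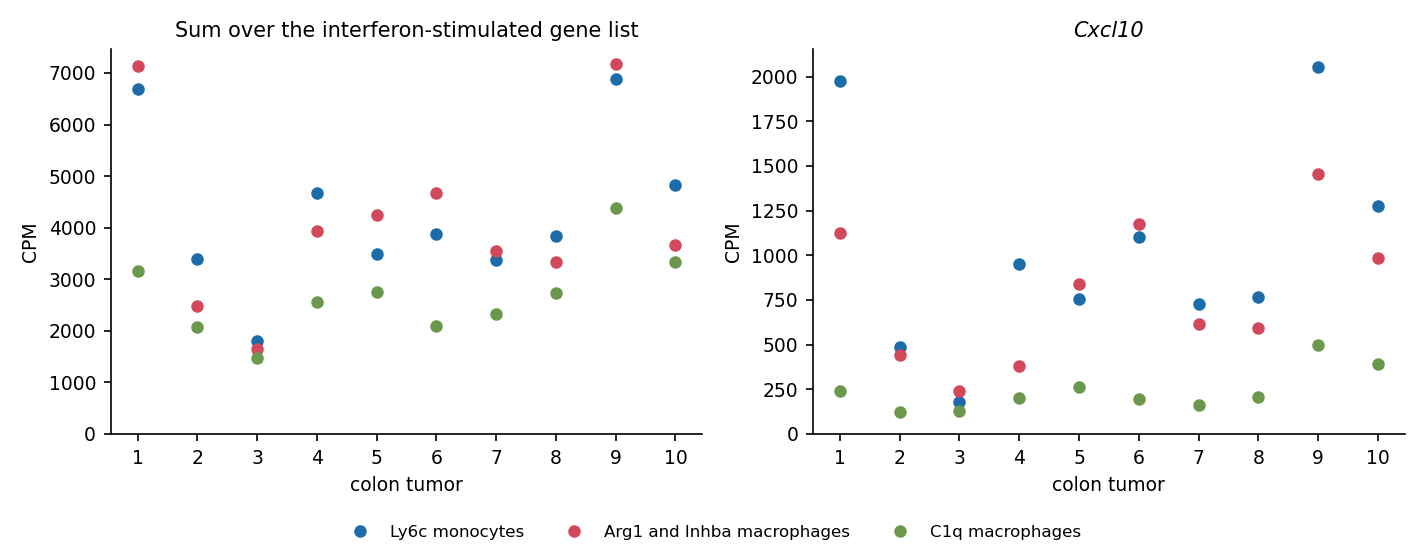
Left, the summed level of the interferon-stimulated gene list in CPM in the monocytes, Arg1 and Inhba macrophages and C1q macrophages of each tumor; right, Cxcl10 alone. Tumor 3 is lowest and tumor 9 highest in the list sum of all 3 classes, and monocytes of tumors 1 and 9 reach 6694 and 6882 CPM.

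Antigen presentation by MHC class II was low and uneven in the monocytes. H2-Aa, the alpha chain of the class II molecule I-A, stood at 73.3, 147 and 253 CPM, against 379, 568 and 1132 in Arg1 and Inhba macrophages (-2.08 ± 0.14) and 3047, 3815 and 4688 in C1q macrophages (-4.45 ± 0.16). Cd74, the invariant chain that guides class II molecules, stood at 397, 723 and 1463 CPM (-1.88 ± 0.13 and -3.79 ± 0.15), in the range of T cells of these tumors (median 743) and above neutrophils (median 406). Over the list, 7 of 11 genes were lower and 2 higher (Ctss and H2-DMa) than in Arg1 and Inhba macrophages, and 10 of 13 lower and 1 higher (Cd80) than in C1q macrophages. H2-DMa, part of the peptide-loading chaperone H2-DM, stood at 155, 223 and 299 CPM, higher than in the Arg1 and Inhba class in 9 of 10 tumors (0.48 ± 0.10) and lower than in the C1q class (-1.08 ± 0.06). Reads of near-identical H2 genes may be split between copies.

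Per cell, the 4 genes H2-Aa, H2-Ab1, H2-Eb1 and Cd74 were counted after thinning each monocyte to 2000 UMIs, which kept 3387 of 3413. In the single tumors 60.1 to 71.4% of monocytes had 0 such UMIs, while 477 cells had at least 3, 234 at least 10 and 119 at least 20. The share with at least 3 was 7.39 to 22.1% in monocytes (median 14.7), 29.2 to 50.3% in Arg1 and Inhba macrophages and 82.7 to 95.5% in C1q macrophages. In cells that should lack these genes it was 1.87 to 5.86% in neutrophils and 2.23 to 9.66% in T cells, all thinned to the same depth. By tumor it was 21.96, 22.1, 18.9 and 17.9% in the 20-week code, 12.4, 9.97, 17.0 and 7.39% in the 24-week code and 11.2 and 10.98% in the 23-week code. The 4 tumors of the 20-week code lay above the other 6.

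**Figure D4:**
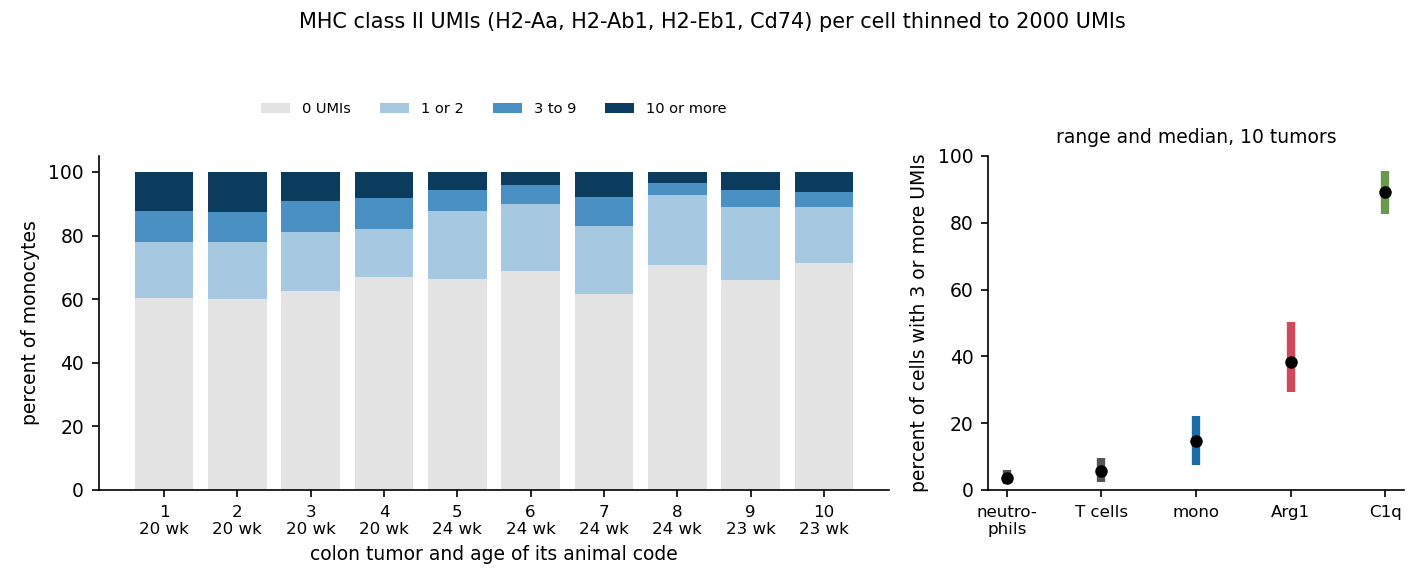
Left, percent of the monocytes of each tumor with 0, 1 or 2, 3 to 9, or 10 or more UMIs over H2-Aa, H2-Ab1, H2-Eb1 and Cd74 after thinning to 2000 UMIs per cell; right, the range (bar) and median (point) over 10 tumors of the percent with at least 3 in 5 classes. Monocytes lie between T cells (median 5.75%) and Arg1 and Inhba macrophages (median 38.4%).

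Genes that differed with this signal were sought by ranking the monocytes of each tumor by the 4 genes and comparing the upper with the lower of 3 equal tiers (1126 cells each). The tiers are a range and no types, since 2840 cells lay within 1 UMI of a cut. The lower cut was at 0 UMIs in every tumor and the upper cut at 0 in tumors 4, 6, 8 and 10, so the lower tier was drawn at random among tied cells and the upper tier of those 4 tumors also took in cells with 0 UMIs. Comparing cells with 3 or more against cells with 0 UMIs instead, which needs no such draw, gave 197 of 2253 genes, 71 of them among the 74 below. Leaving out the 4 ranking genes and the gate genes, 74 of 2170 genes passed (3.41%, 48 higher, 2.21%, and 26 lower, 1.2%). H2-DMb1, the beta chain of H2-DM, stood at 184 ± 61.9 CPM in the upper and 34.7 ± 15.98 in the lower tier (SD, n = 10 tumors; log2 difference 2.30 ± 0.18, adjusted p = 8.5e-12). H2-DMa was higher by 1.11 ± 0.10, Aif1, a calcium-binding protein of macrophages, by 1.07 ± 0.11, AW112010 by 1.06 ± 0.11, Ifitm1 by 0.96 ± 0.08 and Apoe by 0.59 ± 0.04, each in 10 of 10 tumors. The chemokine Cxcl16 rose by 1.17 ± 0.19 in 9 of 10. Of 9 class I presentation genes tested 5 were higher, and of 15 interferon-stimulated genes 4, with none lower in either list.

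The lower tier held more of several monocyte genes. Wfdc21, a secreted whey-acidic-protein family member, stood at 156 ± 66.1 CPM in the upper and 305 ± 81.0 in the lower tier (-0.97 ± 0.11), and Mgst1, a microsomal glutathione transferase, at 367 ± 73.4 and 531 ± 78.0 (-0.53 ± 0.07), both in 10 of 10 tumors. Chil3 fell by 0.40 ± 0.05 on the log2 scale (lower in 9 of 10) and Ccl2 by 0.50 ± 0.09 (10 of 10). With at least 3 Vcan and F13a1 UMIs required, the calls of Mgst1 (-0.33, adjusted p = 0.053) and Ccl2 (-0.37, adjusted p = 0.053) were lost. Without the tumor block Ccl2 (-0.52, adjusted p = 0.72) and Chil3 (-0.36, adjusted p = 0.94) did not pass, with log2 differences near those above. Of 20 monocyte identity genes tested, 6 were lower, 1 higher and 13 did not pass. Wfdc21 was at the same time higher in monocytes than in both macrophage classes, at 129, 270 and 395 CPM against medians of 84.8 and 10.97 (1.51 ± 0.11 in the Arg1 and Inhba and 4.64 ± 0.15 in the C1q comparison), as was Lrg1, a glycoprotein of myeloid granules (1.42 ± 0.10 and 3.88 ± 0.14). The count of 74 moved with the settings, and the number of genes tested moved with some of them. With at most 1 C1q UMI in a member it was 77 of 2076 (48 in common with the 74). It was 41 of 1841 with at least 3 Vcan and F13a1 UMIs (29 in common) and 37 of 1215 at 1000 UMIs per cell (24 in common). Of the same 2170 genes, 30 passed with DESeq2 and 16 without the tumor block, all among the 74.

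Class II genes are known to be switched on together through paired X and Y boxes bound by the factors that recruit CIITA, and the promoters of the class II genes above were read for them. The letters CTNGNAAC (X box, N any base) and TGATTGG (Y box) were chosen after these sequences had been read, and were searched on both strands in the 250 bases before each start in the RefSeq promoters of build GRCm38.p6. They are shown because H2-DMb1, the gene that changed most with the signal and was not used to rank the cells, carries the pair in the same order and at a like spacing as H2-Aa and H2-Eb1, with the X letters first and the Y letters second (capitals). The windows are chr17:34153074-34153154 (plus strand), chr17:34287847-34287927 (minus strand) and chr17:34305753-34305832 (plus strand).
H2-DMb1: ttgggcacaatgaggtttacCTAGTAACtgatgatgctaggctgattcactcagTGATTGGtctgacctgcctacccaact
H2-Aa: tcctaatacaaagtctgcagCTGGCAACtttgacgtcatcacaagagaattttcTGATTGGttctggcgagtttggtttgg
H2-Eb1: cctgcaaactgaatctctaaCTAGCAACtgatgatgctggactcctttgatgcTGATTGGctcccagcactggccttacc
Of the 8 listed class II presentation genes with an entry, 5 held the Y letters, 3 the X letters and 3 both. Of all 32851 promoters 7.23% held the Y letters, 10.9% the X letters and 0.819% both. The 3 listed genes with both are those shown, and the letters were chosen after they were read. Their matches were therefore fixed, and the counts are no test of enrichment. A match is a description of the letters and does not show binding.

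Most proliferation genes were lower than in C1q macrophages. Of 16 tested, 15 were lower and 1 higher (Hmgb2, 0.48 ± 0.08), with a median log2 difference of -1.64, and 4 of 10 were lower and 1 higher than in Arg1 and Inhba macrophages. With 16 genes tested against 10, some of the 16 may have passed the filter on low counts through the C1q class alone. Rrm2, Mcm2 and Ccna2 had 44, 46 and 58 UMIs in all monocytes. Mki67, present in dividing cells, stood at 3.27, 9.35 and 33.6 CPM, against 30.7, 39.5 and 76.3 in C1q macrophages (-1.61 ± 0.28, lower in 9 of 10 tumors). Top2a, the topoisomerase of dividing cells, stood at 1.42, 4.86 and 17.0 CPM (-1.90 ± 0.35, lower in 10 of 10). Neither passed against Arg1 and Inhba macrophages (Mki67 -0.21 ± 0.29, adjusted p = 0.57; Top2a -0.51 ± 0.38, adjusted p = 0.27). At 2000 UMIs per cell, 23.1% ± 3.2 of monocytes had at least 2 UMIs over the list (SD, n = 10), 11.7 points fewer than C1q macrophages (exact two-sided sign-flip permutation test, p = 0.00195, the smallest possible). The difference from Arg1 and Inhba macrophages was -0.15 points (p = 0.852 by the same exact test). Both tests took tumors as units, though tumors of 1 code share an animal. Neutrophils, which do not divide, reached 41.3 to 52.3%, so this share is not read as a share of cycling cells.

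Cdkn2a, the locus of p16, stood at 0 to 4.40 CPM in the monocytes (median 1.55, 46 UMIs in all 10 tumors), and 3' counting does not separate p16 from Arf. Of 19 one-carbon metabolism and DNA methylation genes tested against C1q macrophages, 11 were lower and 1 higher, namely the DNA demethylase Tet2 at 48.4, 85.5 and 110 CPM (1.27 ± 0.08). Folr2, a folate receptor of resident macrophages, had 0 UMIs in the monocytes of every tumor and 3.01 to 21.1 CPM in C1q macrophages. Against Arg1 and Inhba macrophages, 2 of 12 were higher and 3 lower. Since fewer genes were tested there (12 against 19), some of the 19 may have entered through their level in the C1q class alone.

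The animals differed in a smaller set of genes. Between the 3 codes 247 of 8783 genes passed (2.81%), and the 4 tumors of the 20-week code lay above every other tumor in 87 of them and below in 93. Over all genes tested the 20-week tumors were so placed in 3.45% (above) and 3.3% (below). The tumors of the 24-week code were so placed in 57 and 20 of the 247 (2.23% and 2.12% of all genes tested), and those of the 23-week code in 3 and 2 (1.56% and 1.16%). Median UMIs per monocyte were 5827 to 6982 in the 20-week, 6742 to 7100 in the 23-week and 6138 to 7359 in the 24-week code, and median mitochondrial shares were 1.31 to 1.84, 1.46 to 2.23 and 2.19 to 2.56%. The dissociation and immediate early list summed to 7146 to 8396 CPM in monocytes of the 20-week tumors and 8290 to 9819 in the other tumors. In Arg1 and Inhba macrophages it summed to 6258 to 7904 and 7900 to 8942, in the same order. In C1q macrophages it summed to 5203 to 6914 and 7364 to 8504, without overlap. The part of depth, mitochondrial share and this list in the differences between codes was not tested.

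Chil3 had the smallest adjusted p (0.0004). It stood at 2257, 2086, 2042 and 2596 CPM in tumors 1 to 4, at 5383, 5104, 5146 and 5095 in tumors 5 to 8, and at 5752 and 4755 in tumors 9 and 10. The 4 tumors of the 20-week animal lay below the other 6 with no overlap. Chil3 of the 20-week code was also below the other codes without overlap in Arg1 and Inhba macrophages (950 to 1144, against 1740 to 2536) and C1q macrophages (103.8 to 196, against 220 to 480). In neutrophils it stood at 62.5 to 97.8 against 111 to 236. Fpr2, a formyl peptide receptor, ordered the codes, with 17.2 to 28.0 CPM in the 20-week, 54.1 to 68.6 in the 23-week and 76.6 to 91.6 in the 24-week code (adjusted p = 0.00049).

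Nfkbia, the NF-kB inhibitor that the pathway itself induces, stood at 566 to 648 CPM there, against 959 to 1390 in the 23-week and 1104 to 1485 in the 24-week code (adjusted p = 0.0039). Nfkbiz, a nuclear regulator of the same family, stood at 54.6 to 63.9 against 86.7 to 89.5 and 96.8 to 153 (0.0043). Tnf stood at 33.8 to 43.9 against 60.7 to 76.2 and 74.0 to 148 (0.013), and the chemokine Ccl3 at 18.1 to 51.7 against 71.7 to 72.8 and 101 to 136 (0.0083). In Arg1 and Inhba macrophages, C1q macrophages and neutrophils, Nfkbia and Tnf of the 20-week code also lay below both other codes. Without tumor 2 the adjusted p of Tnf in monocytes was 0.054. Over the lists, 6 of 23 cytokine genes passed between codes (Tnf, Il10, Tnfsf14, Csf3, Nlrp3 and Ptgs2, each with a lower mean in the 20-week than in the 24-week code), 5 of 20 glycolysis and hypoxia genes (Tpi1, Pgam1, Ldha, Bnip3 and Ero1l), 3 of 22 monocyte identity genes (Chil3 and Clec4e among them) and 1 of 28 interferon-stimulated genes (Oasl1), against 2.81% of all genes tested. The summed cytokine list overlapped between codes, with its highest level in tumor 1 of the 20-week code (7476 CPM). Tumors 2 to 4 of that code stood at 4393 to 5374 CPM, and the 23- and 24-week tumors at 5356 to 6577. In Arg1 and Inhba macrophages the 20-week tumors stood at 9869 to 15390, the highest again tumor 1, and the others at 15050 to 17220.

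Other genes of the 20-week code fell or rose with them. Mdm2, the p53 ligase, stood at 53.9 to 92.0 CPM against 149 to 201 and 190 to 204 in the 23- and 24-week codes (adjusted p = 0.0022), the chaperone Dnajb9 at 55.9 to 84.3 against 119 to 127 and 150 to 167 (0.0013), and the RNA-decay factor Zfp36l1 at 103 to 153 against 161 to 193 and 246 to 264 (0.0022). Higher in the 20-week code were Gpr183, an oxysterol receptor that guides leukocyte migration, at 51.0 to 60.7 CPM against 19.0 to 21.2 and 24.1 to 33.3 (0.0013), Fam162a at 66.5 to 89.6 against 41.1 to 49.3 and 24.1 to 36.4 (0.0022), and the proteoglycan Sdc1 at 68.6 to 94.6 against 41.6 to 55.4 and 25.5 to 38.9 (0.0032). Fabp5, a fatty acid carrier, stood at 228 to 356 against 124 to 152 and 118 to 148 (0.0047).

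Several of these differences were seen in the other classes of the same tumors too. Mdm2 of the 20-week code lay below both other codes without overlap in Arg1 and Inhba macrophages (74.0 to 110.5 CPM, against 145 to 247), C1q macrophages (39.0 to 52.3, against 71.1 to 103) and neutrophils (44.8 to 49.7, against 51.7 to 66.6). Dnajb9 did so as well (57.8 to 95.8 against 119 to 195, 41.2 to 80.3 against 88.4 to 114 and 48.1 to 65.2 against 72.8 to 117, in the same order). Gpr183 was above the other codes without overlap in both macrophage classes (35.3 to 43.9 against 13.9 to 21.9, and 42.9 to 60.04 against 28.3 to 38.9), and Fpr2 below in both (56.6 to 98.3 against 102 to 184, and 26.0 to 46.98 against 49.2 to 101). Fabp5 was separate in the Arg1 and Inhba class, and Fam162a in C1q macrophages and neutrophils. Zfp36l1 of the 20-week code overlapped the 23-week code in all 3 other classes but lay below the 24-week code in each. It stood at 151 to 257 against 281 to 348.5 CPM in Arg1 and Inhba macrophages and 93.9 to 175 against 195 to 220 in C1q macrophages. In neutrophils it stood at 130 to 178 against 210 to 237. Sdc1 of the 20-week code overlapped the 24-week code in all 3 other classes.

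The class II genes H2-Aa and Cd74 were higher in the 20-week code in the sums as well. H2-Aa stood at 181 to 253 CPM against 127 to 158 and 73.3 to 137 in the 23- and 24-week codes (adjusted p = 0.024), and Cd74 at 866 to 1463 against 655 to 755 and 397 to 691 (0.022). Leaving out tumor 2, 5 or 8 took both past 0.05 (adjusted p up to 0.083). In the other classes the codes overlapped. In Arg1 and Inhba macrophages the code means ran in the same order as in monocytes, with Cd74 at 3591, 2960 and 2192 CPM and H2-Aa at 863, 675 and 475 in the 20-, 23- and 24-week codes, and tumors at 1799 to 4883, 2884 to 3037 and 1696 to 2752 for Cd74. Cd74 stood at 10990 to 15430, 10390 to 11420 and 10010 to 14700 CPM in the C1q macrophages of the 20-, 23- and 24-week codes and 172 to 646, 404 to 524 and 274 to 408 in neutrophils. The difference between classes was not tested.

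**Figure D5:**
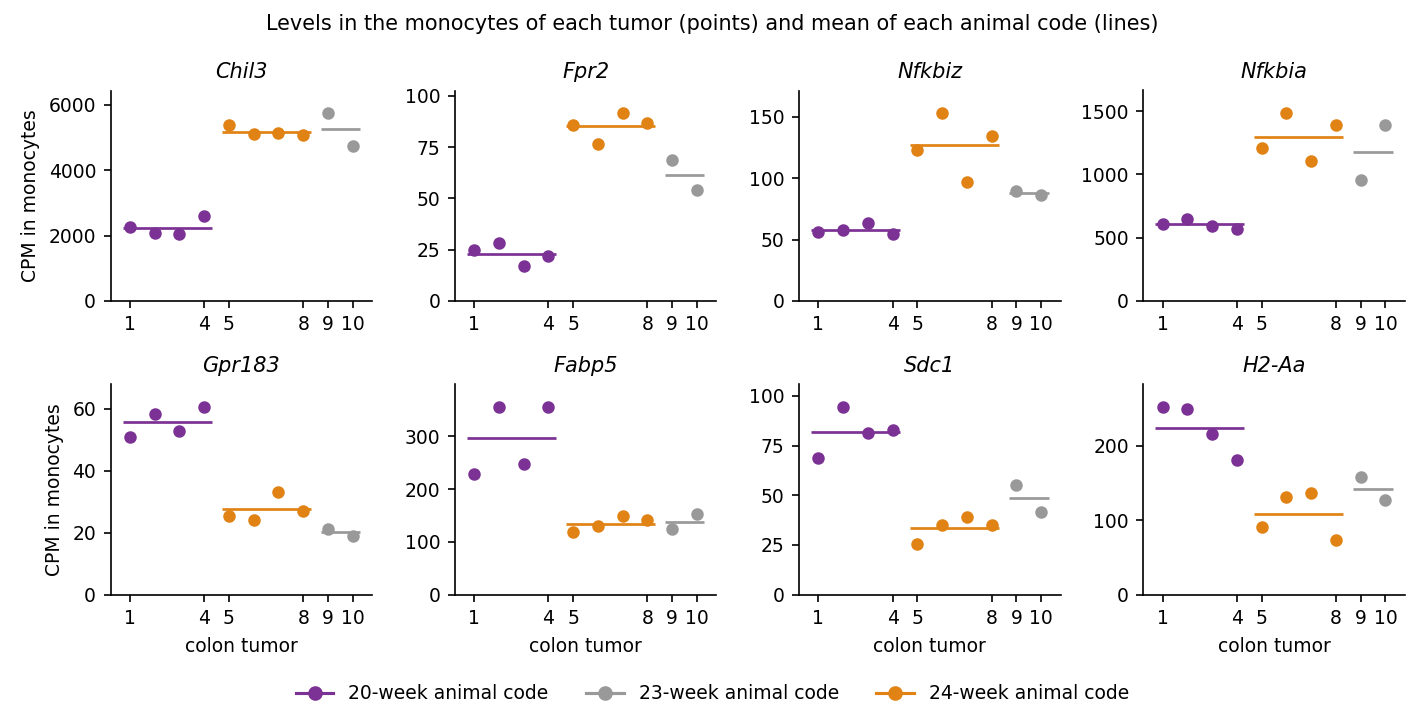
Level of 8 genes in CPM in the summed monocytes of each tumor (points, axes from 0) with the mean of each animal code (lines). The 4 tumors of the 20-week code lie apart from the other 6 in each gene; Chil3 is 2042 to 2596 CPM there and 4755 to 5752 elsewhere.

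All 4 hemoglobin genes tested (Hba-a1, Hba-a2, Hbb-bs and Hbb-bt) passed between codes as well. In tumor 2, the highest for each, 1 cell held 97.7 to 99.2% of their UMIs. The erythrocyte marker list summed to 3821 CPM in the monocytes of tumor 2, 2384 in tumor 3, both of the 20-week code, and to at most 128 in the other 8 tumors. In Arg1 and Inhba macrophages the highest sums were those of tumors 1 and 4 (4991 and 2515 CPM). Igkc, the antibody light chain that plasma cells make, also passed. It stood at 182 to 327 CPM in the 20-week, 107 to 508 in the 23-week and 630.5 to 846 in the 24-week monocytes (adjusted p = 0.036). In neutrophils of the same codes it stood at 300.5 to 494, 180 to 793 and 1111 to 1821 CPM, and in tumor 6, 704 of 718 monocytes had an Igkc UMI. Leaving out tumor 1, 2, 5, 6, 7 or 8 took Igkc past 0.05 (adjusted p up to 0.107). The count of 247 genes depended on single tumors: it was 54 without tumor 2, of which 52 were among the 247, and 373 without tumor 10. It rose to 443 of 7963 genes tested without cells holding more than 2 epithelial UMIs.

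Between libraries labelled Female and Male, 0 of 7905 genes passed with the code as a block (0.0%), with 506 at an unadjusted p under 0.05, and DESeq2 found 0 with 249 at an unadjusted p under 0.05. With no filter on low counts 140 of 17842 passed, and without tumor 7 the number was 1 of 8103.

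Of the 10 genes that varied most between tumors, Socs1 was spread over many cells (131 of 217, as above), and the other 9 lay mostly in few cells of their highest tumor. Defa24, an alpha-defensin of Paneth cells, reached 1687 CPM in the monocytes of tumor 10 and at most 28 elsewhere, and 3366 of its 3367 UMIs there lay in 1 cell. Lyz1, the Paneth cell lysozyme, reached 1069 CPM in the same tumor, with 96.7% of its UMIs in 1 cell. Hbb-bs, a hemoglobin chain, reached 2252 CPM in tumor 2 (97.7% in 1 cell), and the goblet cell gene Spink4 1159 in tumor 10 (86.5% in 1 cell). Lypd8 and Lgals4 of colonocytes and Wfdc18 had 97.5 to 98.5% of their UMIs in 5 cells of the highest tumor, and S100a9 80.1%. By contrast 347 of 368 monocytes of tumor 9 carried Chil3, and the top 5 held 3.74%. A doublet score would remove 118 of the 3413 members.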

How the data were processed

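The 13 libraries were single-cell RNA sequencing libraries made with a Chromium 3' v3.1 kit. The authors deposited raw UMI counts per gene and barcode made with Cell Ranger 6.0.0 against mm10, per the file headers and the submitters' processing notes, while the methods text names another Cell Ranger version. A UMI count ends at the 3' end, so levels are not compared between genes. The range of depth over libraries and classes is given with the results and limits precision, and intervals cover counting error only.

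Cells were retained, classed by UMI rules and summed per tumor and class, then scaled to CPM for display. Sums were tested with edgeR 4.0.16 in R 4.3.3 (quasi-likelihood, TMM, filterByExpr, Benjamini-Hochberg adjustment over all genes tested), with the tumor as a block for classes and tiers, an F test over the 3 animal codes, and the code as a block for sex labels. DESeq2 1.42.0 was an alternative. Shares were tested by exact permutation in Python 3.11.15 with scipy 1.17.1. Per-cell comparisons used cells thinned to 2000 UMIs. Doublets were not removed in the reported values, and removing them was an alternative. On simulated counts for 7488 genes against Arg1 and Inhba macrophages, 83.6% of log2 changes of 0.5 and 100% of 1 or 2 were recovered. For the codes (6559 genes) the recovered shares were 22.4%, 91% and 100%, with 9.55% false calls. Each simulation changed only 67, 67 and 66 genes by 0.5, 1 and 2, none of them at a low level. In the data 53.3% of genes passed against Arg1 and Inhba macrophages, so the rates may not hold for that comparison.

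Members and gene lists were chosen with earlier results of these data known. Genes named were the markers and list genes, the 10 largest changes in each direction with an adjusted p under 0.05, at least 50 CPM in the higher class and 1 direction in all 10 tumors, 15 genes leading monocytes against both classes, the 10 smallest adjusted p between codes, and the 10 most variable genes over tumors with a mean of at least 100 CPM. Mpo was named after its values were seen. Promoter sequences came from RefSeq (GRCm38.p6). Some genes that met the rule for naming are not reported here.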

Additional observations from a re-analysis of the deposited data

Results flagged for a closer look

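A tumor stood apart from the other 9 (Dixon's test at 95%) in 12 of the 93 sets of monocyte levels searched. Chance flags about 1 in 20 of sets not picked for their spread, but 9 of these 12 genes were named for the largest variation over tumors, so that rate is no measure for them. Tumor 10 stood apart for Defa24 (1687 CPM), Lyz1 (1069 CPM), Spink4 (1159 CPM) and Mki67 (33.58 CPM, with 91.0% of its UMIs in the top 5 cells). Tumor 2 stood apart for Hbb-bt (653.6 CPM, with 99.2% of its UMIs in 1 cell), Lypd8 (565.1 CPM), Lgals4 (339.7 CPM), S100a9 (999.9 CPM) and Prtn3 (216.6 CPM, next 129.5). Tumor 4 stood apart for Wfdc18 (495.6 CPM), tumor 3 for Epcam (327.4 CPM, next 190.2) and tumor 1 for Socs1 (467.0 CPM, next 242.3), where the top 5 cells held 12.7% of the UMIs.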

How the results depend on the processing

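Between animal codes the 247 of 8783 genes became 443 of 7963 with at most 2 epithelial UMIs per cell and 511 of 8783 with DESeq2. They became 953 of 17842 with no filter on low counts and 734 of 7930 with the 20- and 24-week codes only. Leaving out 1 tumor each gave 54 (without tumor 2) to 373 (without tumor 10), among them 139, 80, 79, 78 and 86 without tumors 4, 5, 6, 7 and 8. For the tiers by MHC class II, the 74 of 2170 genes became 197 of 2253 for 3 or more against 0 UMIs and 37 of 1215 at 1000 UMIs. They became 117 of 2117 under 10% mitochondrial UMIs and 41 of 1841 with at least 3 Vcan and F13a1 UMIs. Of 2170, 30 passed with DESeq2 and 16 without the library block. Without the 20-week code 46 of 2374 passed, and without the 24-week code 37 of 2209. The 0 genes between sex labels became 140 of 17842 with no filter, and 0 to 1 when 1 tumor was left out. The 4607 of 8641 genes against Arg1 and Inhba macrophages ranged from 3378 of 8693 to 5577 of 19745. The 6709 of 9912 against C1q macrophages ranged from 5322 of 9443 to 7604 of 20441. With the tumors of each animal code summed, 4897 of 11705 genes passed against Arg1 and Inhba macrophages and 6752 of 12172 against C1q macrophages. The comparison of 3 or more with 0 class II UMIs and the limit on epithelial UMIs were chosen after seeing the data. The cause of these moves was not tested.

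The share difference between sex labels was -0.3967 points without tumor 6 and -0.08381 without tumor 7, and -0.3967 to 1.378 over all tumors left out. The share of monocytes with proliferation UMIs against Arg1 and Inhba macrophages turned to 0.8339 points without the 20-week code, 0.4439 at 3 UMIs, 0.5875 without doublets and 0.5929 with the stricter gate. Without the 24-week code Mki67 turned to 0.0859 and Top2a to 0.1512 (log2) in that comparison; neither had passed before. Calls lost without the library block included Tnf (-0.47, adjusted p = 0.10) against C1q macrophages, and Ccl2 (-0.52) and Chil3 (-0.36) between tiers. The stricter gate lost Mgst1 (-0.33) and Ccl2 (-0.37) between tiers. No paired analysis was possible because the mucosa, which the titles tie to tumors by animal code, gave only 23 monocytes (5 to 12 per library), too few to test, and replicate numbers shared across tissues do not mark 1 animal.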
